A study of Rattus norvegicus with 11 samples.

Results

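The heat shock proteins and DnaJ proteins are the chaperones that fold, refold and sort other proteins, and 54 of their genes were measured among 11427 genes in the small intestine of brain-dead rats and ventilated controls. Members were all genes with symbols that begin as Hspa, Hspb, Hspd, Hspe, Hsph, Hsp90, Dnaja, Dnajb or Dnajc with a family number or letter, apart from Hspb6, which is not described here. No filter on level was used, so all 54 were tested. They fall into 7 Hsp70 genes, 3 Hsp110 genes (Hsph1, Hspa4 and Hspa4l), 2 Hsp90 genes, 1 gene of the mitochondrial chaperonin (Hspe1), 6 small heat shock protein genes, 3 DnaJA, 11 DnaJB and 20 DnaJC genes. The last member, Hspbap1, matches by its name and encodes a protein that binds Hspb1 and is not itself a chaperone of the family. Hspa8, Hspa1a, Hspd1 and Hsp90aa1 were not analysed here.

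Each of 11 Affymetrix arrays carried RNA of 1 small intestine sample, and values are log2 levels, on which a step of 1 is a doubling. The NBD group (3 arrays, replicates 1, 3 and 4) came from anaesthetised, ventilated rats that were not brain-dead, sampled at 6 hours. The BD group (4 arrays, replicates 1, 3, 4 and 6) came from rats 6 hours after brain death, and the BD_VNS group (4 arrays, replicates 1 to 4) from brain-dead rats with stimulation of the vagus nerve at the same time point. The labels call the animals of every group transgenic without naming the transgene, and the sources used here give no strain, sex or age. One label field of the NBD arrays also mentions brain-dead animals, and the array titles were followed. They do not say that each array is a separate animal, so the p-values below measure the spread between these samples, which may be technical. With 3 or 4 arrays in a group, precision is limited by their number.

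The 9 measured enterocyte markers, among them Anpep and Apob, had mean levels of 12.53 to 12.92 on the 11 arrays, as the tissue label states. BD 4 and BD 6 stood apart: 15 pancreatic acinar markers averaged 13.83 and 13.25 there, against 6.97 to 7.80 on the other 9 arrays. Results are therefore also given without these arrays where the call changes. In bulk tissue, fewer cells of a type and less RNA per cell cannot be told apart.

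Hsp70 proteins bind exposed stretches of unfolded proteins in a cycle driven by ATP. DnaJ proteins bring clients to Hsp70 and start ATP hydrolysis, while Hsp110 proteins exchange the nucleotide and release the client. Hsp90 finishes the folding of kinases and steroid receptors, the Hsp60 and Hsp10 chaperonin folds proteins in mitochondria, and small heat shock proteins hold unfolded proteins without ATP. Under protein stress the transcription factor Hsf1 raises cytosolic chaperones through repeats of the pentamer nGAAn, whereas stress in the endoplasmic reticulum (ER) raises Hspa5, Hsp90b1 and other lumenal chaperones through a separate element.

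Promoters are shown for 3 members that passed in a comparison, Dnajb1, Hsph1 and Hspb8, because each holds at least 1 pair of the heat shock pentamer. Those of Hspa5 and Hsp90b1 are shown as the ER counterpart. All are from RefSeq on rat build GRCr8, cover 250 bases before to 50 bases after the annotated gene start, and run 5′ to 3′ on the strand of the gene. Capitals mark GAANNTTC or TTCNNGAA, which are the 2 ways of joining pentamers head to head or tail to tail, or the ER stress element, which is CCAAT and CCACG with 9 bases of any kind between them. Each heat shock pair is its own reverse complement, the ER element was searched on both strands, and pairs that overlap by a pentamer were counted separately.
Dnajb1, chr19:41431092-41431391, minus strand: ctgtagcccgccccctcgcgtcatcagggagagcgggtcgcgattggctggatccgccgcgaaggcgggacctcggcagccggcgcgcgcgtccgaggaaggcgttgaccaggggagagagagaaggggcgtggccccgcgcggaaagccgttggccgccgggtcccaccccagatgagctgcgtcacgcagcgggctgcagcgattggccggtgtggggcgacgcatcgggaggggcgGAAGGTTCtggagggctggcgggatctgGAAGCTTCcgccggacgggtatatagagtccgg
Hsph1, chr12:10427118-10427417, plus strand: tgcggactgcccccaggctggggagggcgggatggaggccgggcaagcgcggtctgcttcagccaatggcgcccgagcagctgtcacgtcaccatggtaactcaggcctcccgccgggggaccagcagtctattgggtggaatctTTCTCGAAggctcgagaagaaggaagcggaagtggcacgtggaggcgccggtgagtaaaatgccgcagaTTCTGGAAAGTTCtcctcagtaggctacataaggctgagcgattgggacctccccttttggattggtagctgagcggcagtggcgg
Hspb8, chr12:45837058-45837357, plus strand: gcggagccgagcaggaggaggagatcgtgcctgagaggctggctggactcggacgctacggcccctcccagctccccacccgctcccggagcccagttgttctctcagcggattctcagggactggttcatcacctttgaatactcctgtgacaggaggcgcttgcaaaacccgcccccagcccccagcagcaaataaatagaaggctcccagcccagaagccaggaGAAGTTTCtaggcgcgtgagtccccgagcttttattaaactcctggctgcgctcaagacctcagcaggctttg
Hspa5, chr3:38452766-38453065, plus strand: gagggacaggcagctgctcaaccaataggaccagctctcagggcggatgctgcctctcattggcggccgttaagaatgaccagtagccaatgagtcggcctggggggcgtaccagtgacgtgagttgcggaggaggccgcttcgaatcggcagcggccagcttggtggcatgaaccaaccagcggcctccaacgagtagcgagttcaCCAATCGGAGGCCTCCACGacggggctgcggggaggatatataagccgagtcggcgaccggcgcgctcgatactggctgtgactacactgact
Hsp90b1, chr7:23012244-23012543, minus strand: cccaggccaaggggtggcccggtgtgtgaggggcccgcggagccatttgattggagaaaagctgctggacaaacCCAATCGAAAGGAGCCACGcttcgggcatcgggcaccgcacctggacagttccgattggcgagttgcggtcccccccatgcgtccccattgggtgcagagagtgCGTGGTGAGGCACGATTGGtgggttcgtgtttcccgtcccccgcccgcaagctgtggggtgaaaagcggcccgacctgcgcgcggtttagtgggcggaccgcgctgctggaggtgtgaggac

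The Dnajb1 window held 2 heat shock pairs, the first starting 11 bases before the gene start. In Hsph1 there were 3, starting 105, 36 and 31 bases before the start, the last pair overlapping. Hspb8 held 1, at 23 bases before the start. Of 44 members with a promoter in the table, 11 (25%) held at least 1 pair, against 15.9% of all 33469 promoters, and 3 (6.82%) held at least 3, against 0.368%. The ER stress element was in 3 members, Hspa5, Hsp90b1 and Dnajc3, and in 0.0657% of all promoters. No pair was found in the windows of Dnajb3 and Dnajb14. A match describes letters in a window and does not show that a factor binds there.

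The first question was what brain death does to intestinal gene expression, read from BD against NBD. Among the chaperones, 3 DnaJB genes and Hsph1 were lower after brain death, and Hspa1b and Hspb8 were higher. That is 4 lower and 2 higher, so 6 of 54 (11.1%) passed at an adjusted p under 0.05 in limma, with p adjusted over all 11427 genes. Of all genes 5.73% passed, 3.63% lower and 2.1% higher. The other 48 members did not pass. The median change over the members was -0.01 log2 units, as it was over all genes (-0.01), and 48 of 54 members differed by less than 0.25 log2 units. At an unadjusted p under 0.05, 13 members (24.1%) were counted, against 18.8% of all genes. Arrays of BD and NBD did not overlap for 14 members (25.9%), against 20.4% of all genes. Without BD 4 and BD 6, 4 members passed (Dnajb1, Dnajb3, Dnajb14 and Hspa1b), against 2.56% of all genes. With the RNA quality covariate described below, 5 passed (Dnajb1, Dnajb3, Dnajb14, Hspa1b and Hspbap1), against 6.3% of all genes.

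BD_VNS against BD compares brain-dead rats with and without vagal stimulation. The RNA quality described below cannot be fully told apart from stimulation here. By limma, 0 of 54 members passed, against 5.56% of all genes (1.9% higher and 3.66% lower), and 10 members (18.5%) had an unadjusted p under 0.05, against 22.6% of all genes. All members apart from Hspb1 differed by less than 0.25 log2 units. The smallest adjusted p was that of Dnajb14 (0.0722). Arrays of the groups did not overlap for 4 members (7.41%, against 13.1% of all genes), namely Dnajb14, Hsph1, Dnajc11 and Dnajc22. The median change was 0.04, against 0.03 over all genes. The count stayed at 0 without BD 4 and BD 6, where 1.33% of all genes passed, and with the RNA quality covariate, where 3.63% did.

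In BD_VNS against NBD, which asked how stimulated brain-dead rats differed from controls, the 3 DnaJB genes were lower and Hspb8 was higher. These 4 members (7.41%) passed, against 8.44% of all genes (4.8% lower and 3.64% higher). Groups did not overlap for 9 members (16.7%), against 20.9% of all genes, and 10 (18.5%) had an unadjusted p under 0.05, against 23% of all genes. Without BD 4 and BD 6, 4 members passed (Dnajb1 and Dnajb3 lower, Dnajc13 and Hspa1b higher), against 8.34% of all genes. With the RNA quality covariate 1 member passed, Dnajb3, against 3.18% of all genes. This comparison shares its control arrays with that of BD against NBD, so the values of both are given side by side below without being counted as separate evidence.

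**Figure D1:**
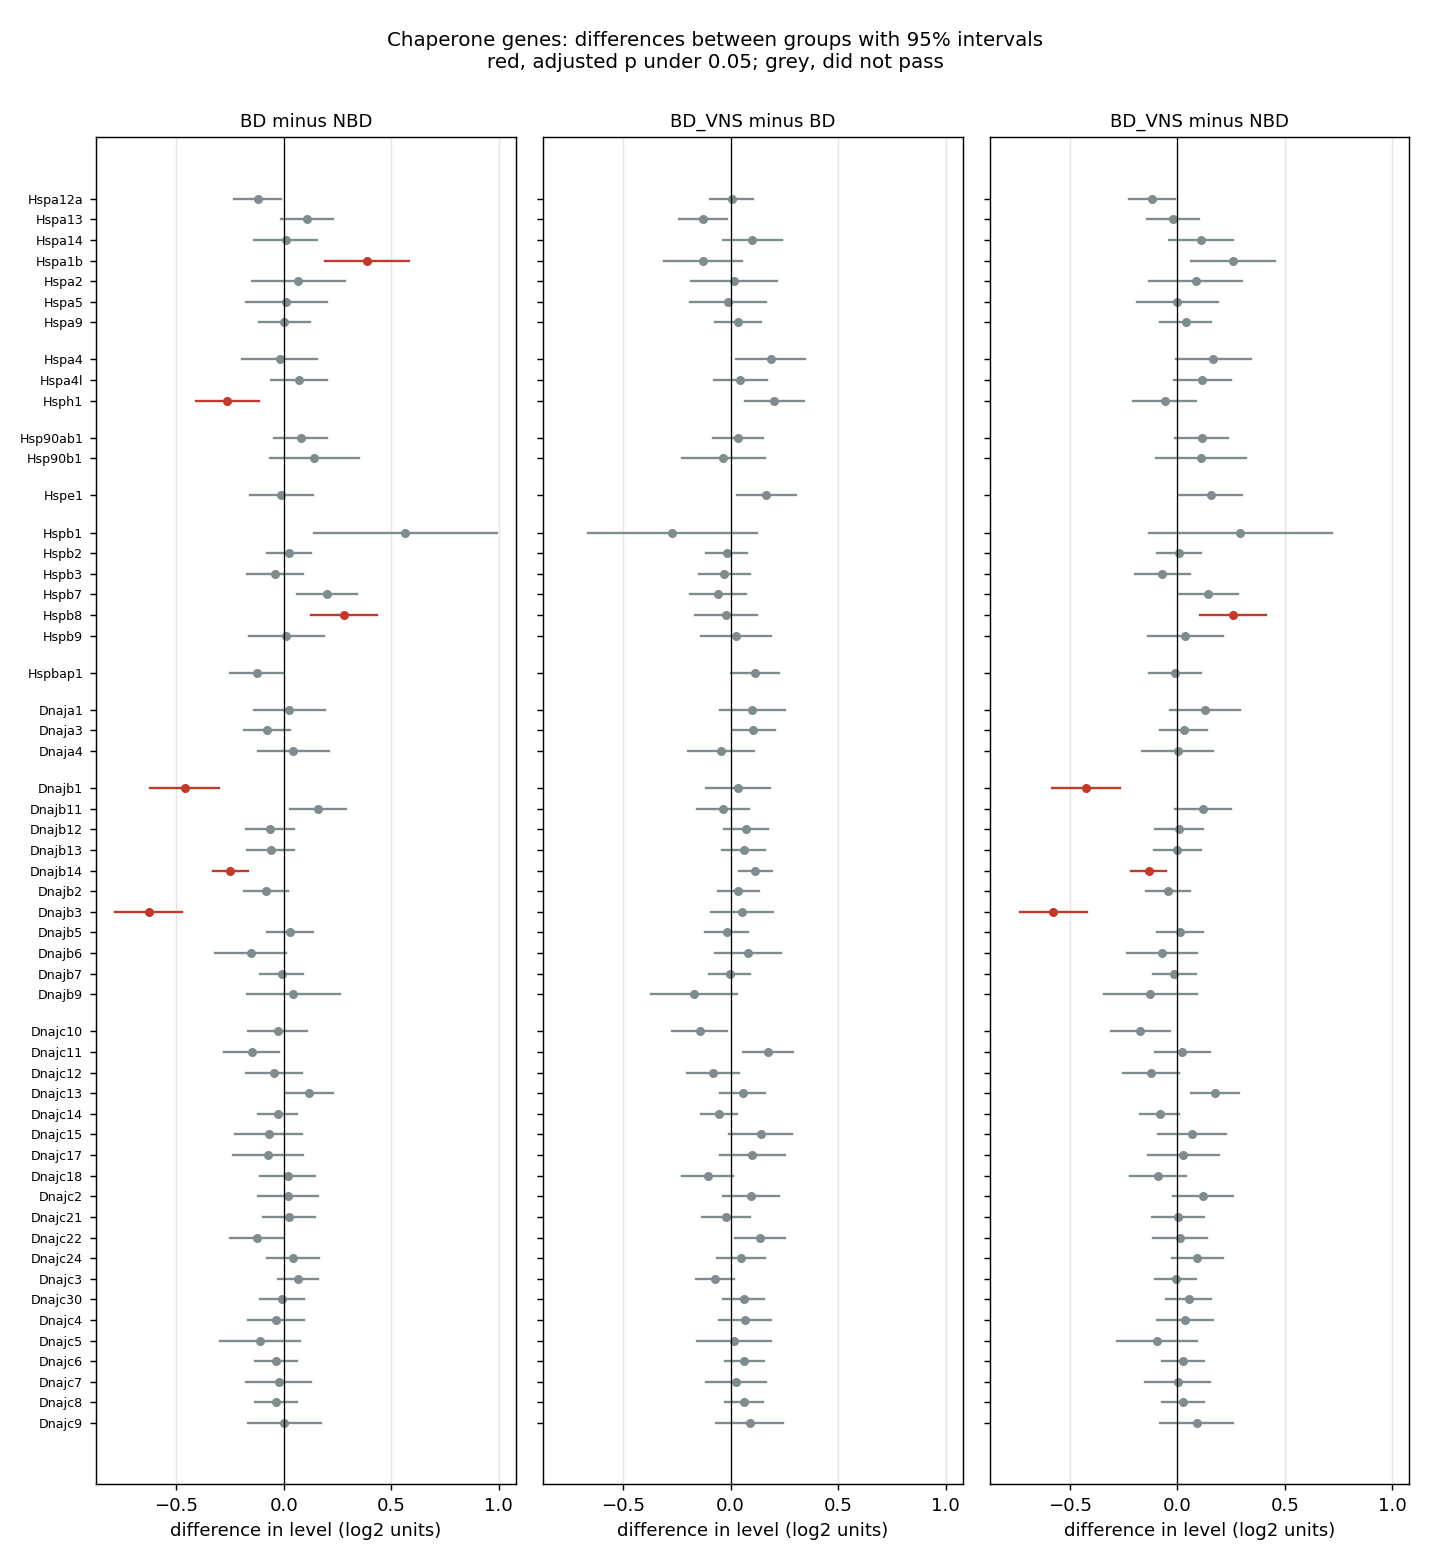
Difference in log2 level between groups for each of the 54 chaperone genes, ordered by class, with 95% intervals from limma; red marks an adjusted p under 0.05. There are 6 red genes in BD minus NBD, 0 in BD_VNS minus BD and 4 in BD_VNS minus NBD.

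Dnajb3 and Dnajb1 were the members that fell furthest in both brain-dead groups. Dnajb3 (Entrez Gene 680216), a DnaJ protein known in mouse for its abundance in testis, was at 9.25, 9.20 and 9.23 in NBD. It was at 8.52, 8.66, 8.49 and 8.74 in BD and at 8.67, 8.48, 8.72 and 8.73 in BD_VNS. Every array of both brain-dead groups lay below every control array, and the brain-dead groups overlapped each other. The change was -0.63 ± 0.07 log2 units (SE; 1.55-fold lower; limma adjusted p = 0.000418) in BD and -0.58 ± 0.07 (1.49-fold lower; limma adjusted p = 0.000773) in BD_VNS. Between BD_VNS and BD it was 0.05, with a 95% interval of -0.09 to 0.20.

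Dnajb1 (Entrez Gene 361384), also called Hsp40, is the main partner of stress-induced Hsp70 in the cytosol. Its level was 9.96, 9.76 and 9.81 in NBD, 9.44, 9.44, 9.27 and 9.40 in BD, and 9.32, 9.60, 9.38 and 9.37 in BD_VNS. The control arrays were again all above both brain-dead groups, and BD_VNS 2 was the highest of the brain-dead arrays. Dnajb1 was 1.38-fold lower in BD (-0.46 ± 0.07, SE; limma adjusted p = 0.00324) and 1.34-fold lower in BD_VNS (-0.42 ± 0.07; limma adjusted p = 0.00479). BD_VNS and BD differed by 0.04, with an interval of -0.11 to 0.18. With the 3′ to 5′ ratio of the control probe sets, a sign of RNA quality, as a covariate, Dnajb1 in BD_VNS against NBD was at -0.30 and no longer passed (adjusted p = 0.0792). That ratio was 0.69 to 0.87 in NBD, 0.76 to 0.89 in BD and 0.75 to 1.10 in BD_VNS. BD_VNS 1, BD_VNS 3 and BD_VNS 4 (1.04, 1.03 and 1.10) lay above every NBD and BD array. For BD_VNS, RNA quality and group therefore cannot be fully told apart, also where a call is lost with this covariate.

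Dnajb14 (Entrez Gene 499716), which sits in the ER membrane and hands clients to cytosolic Hsp70, fell less and in a different order. Its level was 7.80, 7.79 and 7.78 in NBD, 7.55, 7.58, 7.48 and 7.56 in BD, and 7.64, 7.67, 7.65 and 7.67 in BD_VNS. No array of any group overlapped another group, and the stimulated rats lay between the other groups. Against NBD the change was -0.25 ± 0.04 log2 units (SE; limma adjusted p = 0.00225) in BD and -0.13 ± 0.04 (limma adjusted p = 0.0467) in BD_VNS. The second call was lost in 16 of 21 alternatives. These include 9 of the 11 fits that left out 1 array, all but those without BD_VNS 2 or BD 4 (adjusted p 0.0584 to 0.147). The call was also lost without BD 4 and BD 6 together (0.052), with the RNA quality covariate (0.194) and with the replicate number as a block (0.109). With only the 2 groups in the fit the adjusted p was 0.0795. It was 0.0725 with quantile normalization, 0.0571 with median centring and 0.065 with a trended, robust variance. BD_VNS was 0.12 ± 0.03 above BD, which did not pass (limma adjusted p = 0.0722).

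Of the 11 DnaJB genes, then, 3 fell and 0 rose in BD and in BD_VNS against NBD. The class medians were -0.06 and -0.04. In BD_VNS the call of Dnajb14 was lost in most alternatives. Over all genes 3.63% fell in BD and 4.8% in BD_VNS against NBD. The other 8 DnaJB genes had adjusted p above the threshold in all 3 comparisons, with changes in BD from -0.15 (Dnajb6) to 0.16 (Dnajb11). The mean level of the class was 8.22 to 8.27 in NBD, 8.07 to 8.15 in BD and 8.11 to 8.14 in BD_VNS. Of the 9 enterocyte markers 3 fell in BD, where 3.63% of all genes did. The mean level of the markers was 12.82 to 12.92 in NBD, 12.53 to 12.76 in BD and 12.75 to 12.86 in BD_VNS. In BD_VNS 3 markers rose against BD, where 1.9% of all genes did. The part of epithelial markers in the DnaJB changes was not tested.

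**Figure D2:**
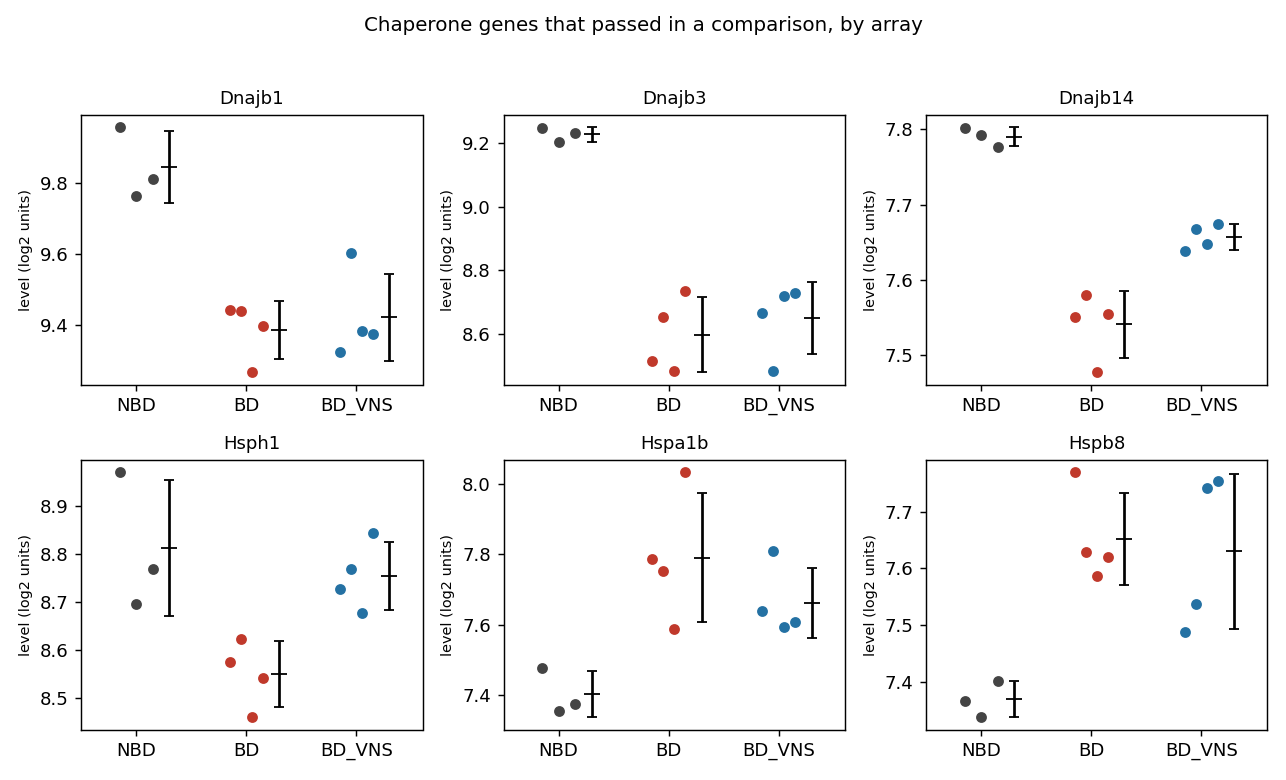
Log2 level on each array of the 6 members that passed in a comparison, with the group mean and SD in black beside the points. In BD and NBD the arrays of all 6 are apart, and Dnajb1 and Dnajb3 in BD_VNS overlap with BD and not with NBD.

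Among 7 Hsp70 genes, Hspa1b rose after brain death and 6 did not pass. Hspa1b (Entrez Gene 294254 in the array annotation) is the stress-induced Hsp70, and its near-identical copy Hspa1a may share its probes. Its level was 7.48, 7.36 and 7.37 in NBD, 7.79, 7.75, 7.59 and 8.03 in BD, and 7.64, 7.81, 7.59 and 7.61 in BD_VNS. All brain-dead arrays lay above all control arrays. The rise in BD was 0.39 ± 0.09 log2 units (SE; 1.31-fold; limma adjusted p = 0.0263), and it no longer passed without BD 3, NBD 1, NBD 3 or NBD 4 (adjusted p 0.0503 to 0.112). In BD_VNS against NBD the difference was 0.26 ± 0.09 (limma adjusted p = 0.0993), and without BD 4 and BD 6, which changes the shared spread, it passed (adjusted p = 0.0244), as it did without BD 6 alone (0.0446). Hspa1b was thus higher in BD while Dnajb1, its partner, was lower.

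No constitutive Hsp70 gene of the ER or mitochondria passed. Hspa5 (also called BiP, the Hsp70 of the ER lumen) was at 12.30, 12.06 and 11.96 in NBD, 12.20, 12.11, 12.10 and 12.06 in BD, and 11.92, 12.16, 12.25 and 12.09 in BD_VNS. The groups overlapped, and the difference in BD was 0.01 with an interval of -0.18 to 0.20. Hspa9, the Hsp70 of mitochondria, was at 11.08 to 11.18 in NBD, 11.04 to 11.26 in BD and 11.11 to 11.21 in BD_VNS. Its difference in BD was 0.003, with an interval of -0.11 to 0.12. Hspa13, an ER Hsp70, was 0.13 ± 0.05 lower in BD_VNS than in BD and did not pass (limma adjusted p = 0.161), though it did with array weights (-0.16, adjusted p = 0.0396).

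Hsph1 (Entrez Gene 288444), the heat-induced Hsp110, was at 8.97, 8.70 and 8.77 in NBD, 8.57, 8.62, 8.46 and 8.54 in BD, and 8.73, 8.77, 8.68 and 8.84 in BD_VNS. The BD arrays were below those of both other groups, which overlapped each other. Hsph1 fell in BD by 0.26 ± 0.07 log2 units (SE; limma adjusted p = 0.0425). The call was kept in 3 of the 11 fits that left out 1 array, those without BD_VNS 2, BD_VNS 4 or NBD 3, and in the other 8 the adjusted p was 0.052 to 0.169. Without BD 4 and BD 6 the change was -0.21 (adjusted p = 0.212). The call was also lost with the RNA quality covariate (0.0588), with the replicate number as a block (0.146) and with only BD and NBD in the fit (0.0645). BD_VNS was 0.20 ± 0.06 above BD (limma adjusted p = 0.0776, and 0.046 without NBD 1) and 0.06 below NBD, with an interval of -0.21 to 0.09. Of the other Hsp110 genes, Hspa4 was 0.19 ± 0.07 higher in BD_VNS than in BD and did not pass (limma adjusted p = 0.159), though it did without BD 1 (0.0422).

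Neither Hsp90 gene passed. Hsp90ab1, the constitutive cytosolic Hsp90, was at 11.89, 11.97 and 12.08 in NBD, 12.08, 12.08, 12.13 and 11.94 in BD, and 12.07, 12.13, 12.03 and 12.12 in BD_VNS. The groups overlapped, and the difference in BD was 0.08 with an interval of -0.05 to 0.20. Hsp90b1, the Hsp90 of the ER, was at 11.45, 11.22 and 11.07 in NBD, 11.49, 11.52, 11.30 and 11.25 in BD, and 11.21, 11.44, 11.43 and 11.34 in BD_VNS. The control arrays alone spanned most of that range, and the difference in BD was 0.14 with an interval of -0.07 to 0.35.

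By compartment, 0 of 7 lumenal ER chaperones and 0 of 6 mitochondrial chaperones passed in any comparison. In the ER, 1, 2 and 1 of 7 had an unadjusted limma p under 0.05 in BD against NBD, BD_VNS against BD and BD_VNS against NBD, and in mitochondria 1, 3 and 1 of 6 did. Over all genes the shares were 18.8%, 22.6% and 23%. The ER members (Hspa5, Hspa13, Hsp90b1, Dnajb9, Dnajb11, Dnajc3 and Dnajc10) had a median change of 0.07 in BD and of -0.07 in BD_VNS against BD. Dnajb9, a co-chaperone induced by ER stress, was at 9.68 to 10.12 in NBD and 9.64 to 9.87 in BD_VNS, and its BD arrays all lay inside the NBD range. In BD 4 and BD 6, where the acinar markers were high, the ER mean was 10.14 and 10.11, inside the range of the 9 other arrays (9.99 to 10.19). The mean of the 26 other ER folding genes described below was 9.86 in BD 4 and 9.70 in BD 6. Both were above the other 9 arrays (9.57 to 9.68). That mean can rest on few genes: the highest change in BD was 1.81, which did not pass, against a list median of 0.07.

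The mitochondrial members (Hspa9, Hspe1, Dnaja3, Dnajc11, Dnajc15 and Dnajc30) had a median change of -0.04 in BD and of 0.12 in BD_VNS against BD, where the median of all genes was 0.03. Hspe1, the lid of the chaperonin, was at 11.91, 11.94 and 11.95 in NBD, 12.02, 11.98, 11.88 and 11.80 in BD, and 11.92, 12.17, 12.16 and 12.10 in BD_VNS. The BD arrays surrounded the controls, and BD_VNS was 0.17 ± 0.06 above BD (limma adjusted p = 0.14). Dnajc11, a protein of the mitochondrial outer membrane, was at 8.02 to 8.22 in BD and 8.22 to 8.41 in BD_VNS, a difference of 0.17 ± 0.05 that did not pass (limma adjusted p = 0.0817). Its control arrays, at 8.25 to 8.33, lay within the BD_VNS range.

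**Figure D3:**
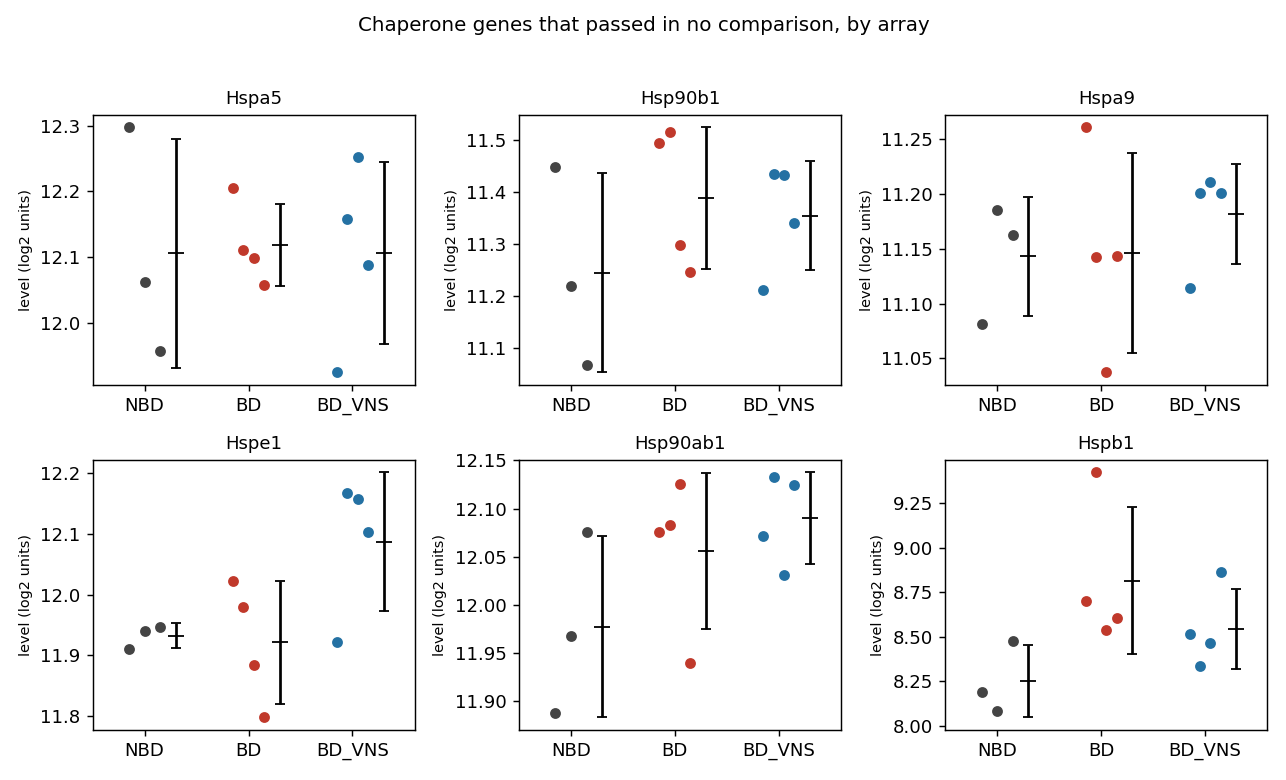
Log2 level on each array of 6 members that passed in no comparison, with the group mean and SD in black. The arrays of the 3 groups overlap for the ER chaperones Hspa5 and Hsp90b1, for mitochondrial Hspa9 and Hspe1 and for cytosolic Hsp90ab1, and Hspb1 is highest in BD 3.

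Of the 6 small heat shock protein genes, Hspb8 rose in both brain-dead groups and 5 did not pass. Hspb8 (Entrez Gene 113906), which with Bag3 sends damaged proteins of muscle to autophagy, was at 7.37, 7.34 and 7.40 in NBD. It was at 7.77, 7.63, 7.59 and 7.62 in BD and at 7.49, 7.54, 7.74 and 7.75 in BD_VNS. Every brain-dead array was above every control. The rise was 0.28 ± 0.07 log2 units (SE; limma adjusted p = 0.0377) in BD and 0.26 ± 0.07 (limma adjusted p = 0.0419) in BD_VNS, and the groups differed from each other by -0.02, with an interval of -0.16 to 0.12.

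The Hspb8 difference moved little when 1 array was left out, from 0.24 to 0.30 in BD and from 0.22 to 0.31 in BD_VNS, but its adjusted p lay near the threshold. The rise in BD was not called without BD 1, BD 3, BD 6, NBD 1, NBD 3 or NBD 4 (adjusted p 0.0709 to 0.148), nor that in BD_VNS without BD_VNS 3, BD_VNS 4, BD 3, BD 6, NBD 1, NBD 3 or NBD 4 (0.0558 to 0.143). Without BD 4 and BD 6 together the adjusted p was 0.0815 in BD and 0.0523 in BD_VNS. With the replicate number as a block it was 0.123 and 0.0768, and with the RNA quality covariate 0.0615 and 0.259.

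Hspb1 (also called Hsp27), which protects actin filaments, had the widest spread. Its level was 8.19, 8.09 and 8.48 in NBD, 8.70, 9.42, 8.54 and 8.60 in BD, and 8.51, 8.34, 8.47 and 8.86 in BD_VNS. BD lay above NBD on every array, with BD 3 far above the other 3, and BD_VNS overlapped both. The difference of 0.57 ± 0.19 log2 units in BD did not pass (limma adjusted p = 0.128), though it did with array weights (0.63, adjusted p = 0.0291). Hspb7, a small heat shock protein of muscle, was 0.20 ± 0.06 higher in BD and did not pass either (limma adjusted p = 0.0971). It was called with array weights and with only BD and NBD in the fit.

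Smooth muscle markers were higher in the same groups as these genes. Of 8 markers, 2 rose in BD (Cnn1 and Des) and 2 in BD_VNS (Actg2 and Cnn1) against NBD. Over all genes 2.1% and 3.64% rose in these comparisons. The mean level of the markers was 9.62 to 9.81 in NBD, 9.83 to 10.21 in BD and 9.86 to 10.16 in BD_VNS. The mean of the 6 small heat shock proteins was 7.34 to 7.41, 7.50 to 7.64 and 7.45 to 7.54. That mean can rest on few genes: Hspb2, Hspb3 and Hspb9 differed by 0.03, -0.04 and 0.01 in BD against NBD. The log2 scale has no 0, so the absence of a marker cannot be read from it. The part of muscle content in the small heat shock protein levels was not tested.

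**Figure D4:**
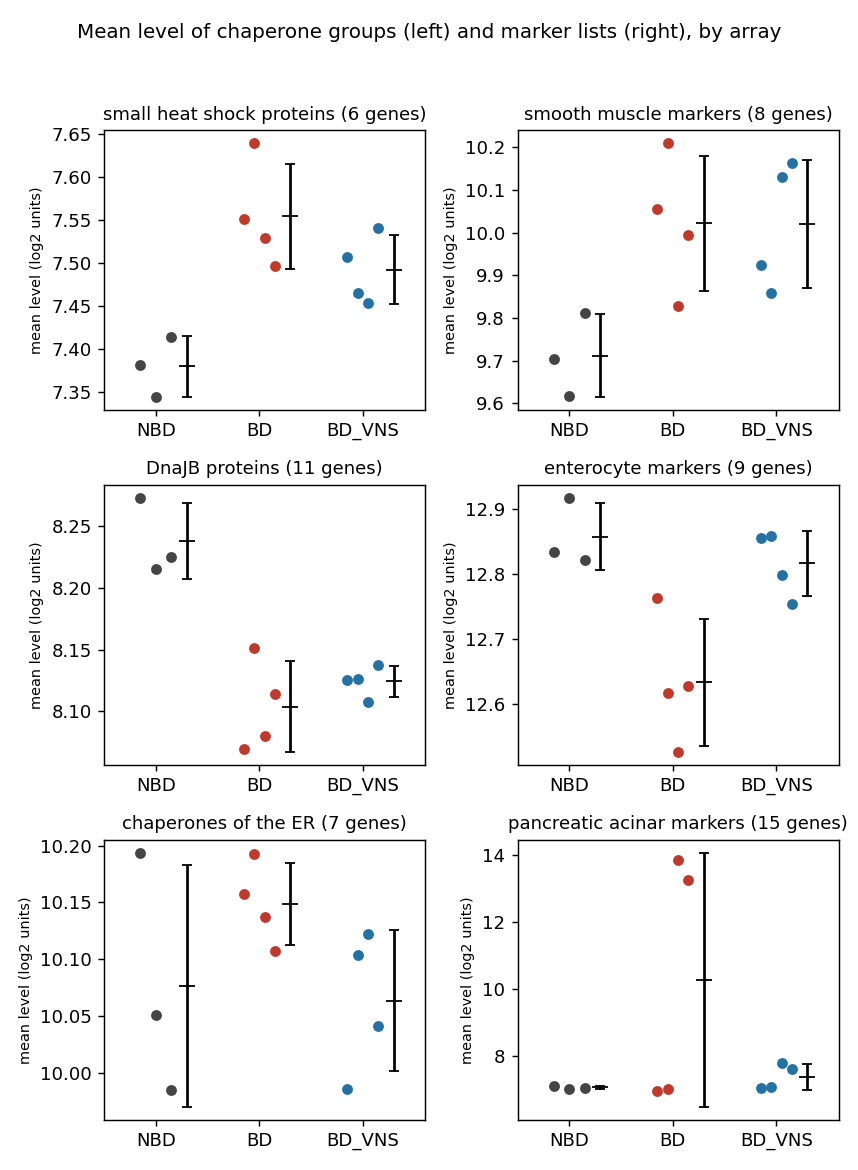
Mean log2 level on each array of 3 chaperone groups (left) and 3 marker lists (right), with the group mean and SD in black. The means of the small heat shock proteins and smooth muscle markers are lowest in NBD, that of the DnaJB proteins is highest there, and the acinar markers are near 13 to 14 in BD 4 and BD 6 alone. A mean can rest on few genes of its group.

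The 3 DnaJA and 20 DnaJC genes, which include co-chaperones of endosomes, splicing and ribosomes, gave 0 calls in any comparison. By unadjusted limma p under 0.05, DnaJC had 2, 3 and 2 genes and DnaJA 0, 1 and 0 (against 18.8%, 22.6% and 23% of all genes) in BD against NBD, BD_VNS against BD and BD_VNS against NBD. No DnaJC gene differed by 0.25 log2 units or more. Dnaja1, a cytosolic partner of Hsp70 whose promoter window held 3 heat shock pairs, was at 10.63 to 10.82 in NBD, 10.56 to 10.88 in BD and 10.78 to 10.96 in BD_VNS. The groups overlapped, and its difference in BD was 0.03 with an interval of -0.14 to 0.19.

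Dnajc13, an endosomal DnaJ protein, was at 9.69 to 9.71 in NBD, 9.73 to 9.91 in BD and 9.80 to 9.96 in BD_VNS. It was above all controls in both groups, by 0.12 ± 0.05 in BD (limma adjusted p = 0.235) and by 0.17 ± 0.05 in BD_VNS (limma adjusted p = 0.0581), and passed in neither. The second difference did pass without BD_VNS 2, BD 3 or BD 4 (adjusted p 0.0417 to 0.0496). Dnajc10, an ER reductase, was 0.17 ± 0.06 lower in BD_VNS than in NBD and did not pass (limma adjusted p = 0.125), though with the replicate number as a block it did (-0.21, adjusted p = 0.0344). Hspbap1 was at 7.65 to 7.81 in NBD, 7.58 to 7.64 in BD and 7.60 to 7.82 in BD_VNS, and did not pass in any comparison. With the RNA quality covariate its change in BD was -0.17 and passed (adjusted p = 0.0495).

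Other genes of the chaperone pathway were read from lists that hold no member. Of 28 co-chaperones and related proteins, 1 rose and 2 fell in BD, 1 rose and 1 fell in BD_VNS against BD, and 2 fell in BD_VNS against NBD, with medians of -0.03, 0.03 and 0.02. In these comparisons 10.7%, 7.14% and 7.14% of the list passed, against 5.73%, 5.56% and 8.44% of all genes. Cdc37l1, a relative of the Hsp90 partner Cdc37, fell from 8.65 in NBD to 7.51 in BD (-1.14 ± 0.05, SE; limma adjusted p = 7.24e-07) and 7.55 in BD_VNS (-1.10 ± 0.05). Fkbp5, a partner of Hsp90 in steroid receptors, fell from 9.79 in NBD to 7.16 in BD and 7.27 in BD_VNS. Fkbp4, its counterpart there, was 0.22 ± 0.05 higher in BD_VNS than in BD (limma adjusted p = 0.028). That call was lost without BD 4 and BD 6 together (0.17, adjusted p = 0.184), and without BD 3, BD 4, BD 6, BD_VNS 3 or BD_VNS 4 alone (0.0585 to 0.0859).

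Serpinh1, the collagen chaperone of the ER, rose by 0.42 ± 0.07 in BD (limma adjusted p = 0.0059) and was 0.49 ± 0.07 lower in BD_VNS than in BD (limma adjusted p = 0.0044). Fibroblast markers matched this in part: 3 of 8 rose in BD and 6 of 8 fell in BD_VNS against BD. In BD, 3 of the 8 had negative changes. In BD_VNS against NBD 3 markers fell and the list median was -0.32, while Serpinh1 differed by -0.07 (limma adjusted p = 0.644). The mean level of the markers was 10.14 to 10.33 in NBD, 10.39 to 10.67 in BD and 9.50 to 10.05 in BD_VNS. Over all genes 2.1% rose in BD, 3.66% fell in BD_VNS against BD and 4.8% fell in BD_VNS against NBD. The part of fibroblast markers in the level of Serpinh1 was not tested.

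Of 26 further genes of ER folding and ER stress, 2 fell in BD against NBD, Edem1 (-0.46 ± 0.06, SE) and Herpud1 (-0.39 ± 0.08), which both serve the degradation of misfolded ER proteins. In BD against NBD and in BD_VNS against BD 7.69% of the list passed, and in BD_VNS against NBD 15.4%. Over all genes the shares were 5.73%, 5.56% and 8.44%. Herpud1 was at 10.94 in BD 4 and 10.57 to 10.64 in the other BD arrays, and without BD 4 and BD 6 its change was -0.45 (adjusted p = 0.00498). Without NBD 1, NBD 3 or NBD 4 it did not pass (0.052 to 0.0645). The same genes fell in BD_VNS against NBD, where Ero1a, the ER oxidase, rose by 0.65 ± 0.10 and Derl1 also rose. In BD_VNS against BD, P4hb, a protein disulfide isomerase, rose by 0.17 ± 0.04 and Eif2ak3 fell; Derl1 and Eif2ak3 were named after their values were seen. Without BD 4 and BD 6, P4hb (0.13, adjusted p = 0.228), Eif2ak3 (-0.28, adjusted p = 0.144) and Derl1 (adjusted p = 0.069) did not pass. Leaving out 1 array at a time, P4hb passed in 5 of 11 fits, Eif2ak3 in 3 and Derl1 in 2. Among 8 genes of heat shock factors, their regulators and the stress gene Atf3, and 10 of the Cct chaperonin and prefoldin, 0 passed in any comparison by limma. Atf3 had the largest change of the first list, 0.40 ± 0.14 in BD (adjusted p = 0.142), with BD 4 highest at 8.15. Without BD 4 and BD 6 it was 0.14 (adjusted p = 0.386). Hdac6, a deacetylase that acts on Hsp90, was 0.14 ± 0.04 higher in BD (adjusted p = 0.0713), and Cct8 was 0.20 ± 0.06 higher in BD_VNS than in NBD (adjusted p = 0.0698). At an unadjusted limma p under 0.05, 3, 2 and 2 of the heat shock factor list and 1, 2 and 1 of the chaperonin list were counted. The order is BD against NBD, BD_VNS against BD and BD_VNS against NBD. These are 37.5%, 25% and 25% of the heat shock factor list and 10%, 20% and 10% of the chaperonin list. Over all genes the shares were 18.8%, 22.6% and 23%.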

How the data were processed

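Total RNA was isolated with Trizol and turned into biotinylated cRNA for Affymetrix arrays, per the labels' protocols. The deposited values are log2 levels per probe set, normalized by the authors with a method not given in the sources used here; the log2 scale was read from their range (5.36 to 14.48). Of 11484 probe sets, 57 controls were left out and 11427 tested. Probe sets are named by Entrez number; 11018 had a symbol in the platform annotation. Of the 54 members, 53 Entrez numbers are in the RefSeq table (GRCr8); that of Hspa1b is not. Promoters were found for 44.

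Arrays were grouped by title and all 3 groups entered 1 linear model (limma 3.58.1, R 4.3.3; lmFit, then eBayes), with Benjamini-Hochberg adjustment over all 11427 and a threshold of 0.05. Intervals are 95%, from the moderated fit. The fit was tested on simulated data with independent normal noise and known changes added. These lacked the acinar and RNA quality differences of the arrays, so the test does not bear on the calls above. The members and lists were chosen with earlier results of these data known. Named were members that passed, the smallest p per class and comparison, a fixed set of stress and compartment genes (those measured), and up to 4 genes per pathway list; Dnajb6, Dnajb11, Dnajc5, Dnajc10, Dnajc22 and Hspb7 were named after their values were seen. The closing section gives the alternatives.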

Additional observations from a re-analysis of the deposited data

Results flagged for a closer look

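In groups of 4 arrays, a value far from its 3 neighbours by Dixon's 95% limit was found in 3 of 108 member and group pairs (2.78%), where chance gives about 1 in 20. Dnajb5 was at 7.21 in BD 1, against 7.31 to 7.32 in the other BD arrays. Hspa2 was at 7.64 in BD 1, against 7.41 to 7.43. Hspa9 was at 11.11 in BD_VNS 1, against 11.20 to 11.21. None of these genes passed in a comparison.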

How the results depend on the processing

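In BD against NBD, 6 members passed. Leaving out the lower 50% of probe sets, which keeps 33 of the 54, gave 3 (Dnajb1, Dnajb3 and Hsph1). Dnajb14, Hspa1b and Hspb8 lie in that lower part and were not tested there. Leaving out 1 array gave 3 to 6, with 3 without BD 3, NBD 1 or NBD 4. Array weights gave 9, 4 higher and 5 lower. Dnajb1, Dnajb3 and Dnajb14 passed in all of these fits that tested them. In BD_VNS against BD the count of 0 became 5 with array weights, 1 with quantile normalization (Dnajb14), 3 at an adjusted p under 0.10 and 0 to 1 without 1 array (Hspa4 without BD 1, Hsph1 without NBD 1). In BD_VNS against NBD the count of 4 became 1 (Dnajb3) with the 3′ to 5′ covariate, 12 with array weights and 2 to 8 without 1 array. It was 8 without BD_VNS 2, and 2 without BD_VNS 3, BD_VNS 4, NBD 1, NBD 3 or NBD 4. Array weights raised the calls over all genes too, to 1642, 1628 and 2599. The causes were not tested. Leaving out BD 4 and BD 6 together gave 4, 0 and 4. With the replicate number as a block they were 4, 0 and 4, the last being Dnajb1, Dnajb3, Dnajc10 and Dnajc5, without Dnajb14 and Hspb8; same-numbered arrays had correlations of deviations of -0.24 to 0.07 over 9 pairs, and 0, 2 and 2 of 6 arrays matched best with their own number, so the numbers were not taken as pairs. Of 60 results for 20 named members, 15 changed their call under some alternative. Calls were lost 53 times and gained 24 times in 1308 refits or thresholds. A called change reversed its sign 0 times. Signs of changes that were not called did differ between fits, as for Dnaja1 in BD against NBD (-0.03 to 0.11). The number of arrays limits all of these.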
